A study of Mus musculus with 10 samples.

Results

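Il10 encodes interleukin-10 (IL-10), and 6 of the 53465 genes in the deposited files were followed here for it: Il10 itself, the receptor chains Il10ra and Il10rb, and 3 transcription factors that act on Il10 in T cells, Maf, Prdm1 and Bhlhe40. Il10 was chosen by its own level, which was higher with acetate and with time in these same libraries, so its own contrasts are given as a description with no test. The other 5 genes were chosen for their known relation to it. All 6 passed the filter on low counts.

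The measured cells were CD8 T cells of C57BL/6 OT-I mice, whose transgenic T cell receptor recognises an ovalbumin peptide, taken from spleen and peripheral lymph nodes. In all groups the cells were activated with the SIINFEKL peptide and interleukin-2 in 25 mM glucose for 3 days, moved to 1 mM glucose, and restimulated with PMA and ionomycin for 4 h before polyadenylated RNA was sequenced. The d9 acetate group (3 libraries) had 120 h of low glucose with 5 mM sodium acetate in the last 1 day, and the d9 group (3 libraries) had 120 h without acetate. The d5 acetate group (2 libraries) had 24 h of low glucose with 5 mM sodium acetate, and the d5 group (2 libraries) had 24 h without it. Every library therefore comes from restricted and restimulated cells, and cells kept in 25 mM glucose were not analysed here. The named durations do not add up to day 5 or day 9, so d5 and d9 are used as the labels give them.

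Libraries held 16.59 to 24.66 M counts. The levels below are CPM, the counts of a gene per M counts of its library, after normalisation by the trimmed mean of M-values, and a gene was called changed at an adjusted p of 0.05 or less in edgeR's quasi-likelihood test over 13182 genes. Whether replicates were separate cultures or mice is not stated in the labels, and p-values cover the spread among these libraries alone. Replicate 1 of d9 and replicate 2 of d9 acetate stood apart from the other d9 libraries, and ribosomal protein genes took 15.3% and 15.0% of their counts. The summed level of 13 CD8 T cell markers was 4859 to 5931 CPM with acetate and 4928 to 5821 CPM without it at d9, and 5140 to 5347 CPM with acetate and 4667 to 5035 CPM without it at d5. In bulk RNA, fewer cells that express a gene and less RNA of it per cell cannot be told apart.

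IL-10 is a cytokine that restrains inflammation. Effector CD8 T cells can make it at the height of a response, and it dampens antigen presentation and the output of other cytokines by macrophages and dendritic cells. It binds a receptor made of the ligand-binding chain IL-10Rα (Il10ra) and the shared chain IL-10Rβ (Il10rb), which signal through the kinases Jak1 and Tyk2 to Stat3. In T cells, c-Maf (Maf) and Blimp-1 (Prdm1) promote Il10 transcription, and Bhlhe40 represses it.

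The mouse Il10 gene (ENSMUSG00000016529) lies on the plus strand at chr1:131019845-131024974 of GRCm38 and has 5 exons, with 1310 exonic bases in GENCODE M21. No annotated gene overlaps its exons. The coding part of this RNA, whose abundance the results turn on, has 537 bases spliced from exons between positions 131019912 and 131024268. Its first 300 bases, from 131019912 to 131021403 without the introns, are shown 5′ to 3′ with the start codon in capitals.
Il10 coding sequence, first 300 bases: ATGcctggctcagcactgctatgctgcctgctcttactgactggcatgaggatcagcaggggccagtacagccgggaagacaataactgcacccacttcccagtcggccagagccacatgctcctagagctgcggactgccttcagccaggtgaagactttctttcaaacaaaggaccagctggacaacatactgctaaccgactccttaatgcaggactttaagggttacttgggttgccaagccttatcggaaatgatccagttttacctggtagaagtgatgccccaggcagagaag

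Il10 was highest in the d9 acetate cells and lowest in the d5 cells, and no 2 groups overlapped. The d9 acetate libraries had 82.2, 117 and 86.1 CPM, against 31.1, 23.1 and 22.1 CPM in the d9 libraries. The d5 acetate libraries had 7.12 and 8.31 CPM, against 1.16 and 1.17 CPM in the d5 libraries. Every acetate library was above every library of the same day without acetate, and every d9 library was above every d5 library, with or without acetate. In raw counts the 3 d9 acetate libraries held 1951, 2553 and 2019 Il10 reads, and the 2 d5 libraries held 21 and 20. The exact Poisson 95% intervals of those 2 d5 libraries were 0.717 to 1.77 and 0.714 to 1.80 CPM, which cover counting error only.

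The group means of Il10 were 95.1 ± 19.0 CPM in d9 acetate and 25.4 ± 4.96 CPM in d9 (SD, n = 3 each), a log2 difference of 1.90 ± 0.17 (SE) or 3.74-fold. At d5 they were 7.71 ± 0.843 CPM with acetate and 1.16 ± 0.00691 CPM without it (SD, n = 2 each), a log2 difference of 2.72 ± 0.29 or 6.61-fold. The day difference was larger than the acetate difference in either state. Il10 at d9 was 21.8-fold its d5 level without acetate (log2 4.44 ± 0.27) and 12.3-fold with acetate (log2 3.62 ± 0.23). These contrasts share libraries and are not separate support for one another. The acetate effect at d9 minus that at d5 was -0.82 ± 0.34 on the log2 scale, the smaller ratio standing beside the higher level.

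**Figure D1:**
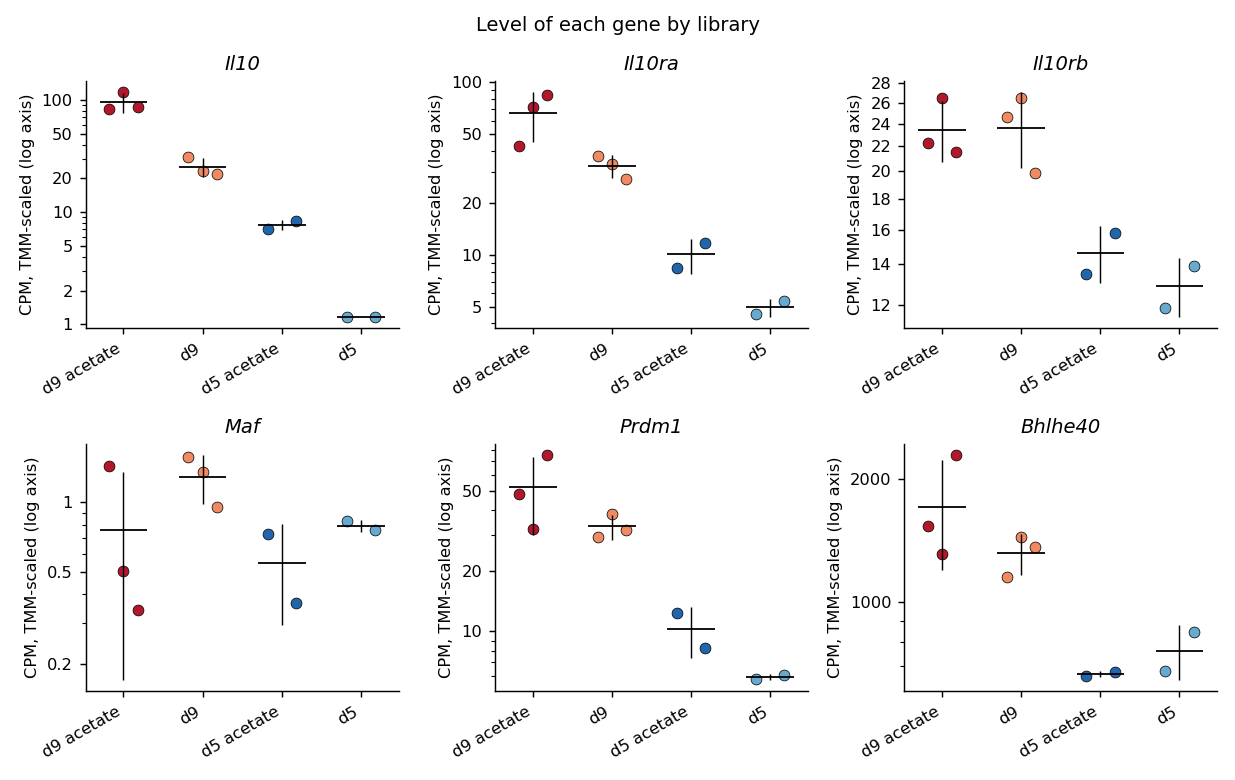
Level of Il10, Il10ra, Il10rb, Maf, Prdm1 and Bhlhe40 in each library, in CPM on log axes. Points are libraries, horizontal lines group means and vertical lines 1 SD (n = 3 for the d9 groups and 2 for the d5 groups). Il10 falls into 4 separate levels, with 117 CPM in d9 acetate and 1.16 CPM in d5 at the ends, while the d9 groups of Maf overlap near 1 CPM.

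Markers of natural killer (NK) cells stood in the same order of groups as Il10, with overlap between the d9 groups. The 7 listed markers summed to 39.3 to 50.7 CPM in d9 acetate and 29.8 to 44.7 CPM in d9, and to 14.0 to 16.3 CPM in d5 acetate and 7.59 to 9.76 CPM in d5. Of the 4 tested, 1 changed with acetate at d5 (Klrb1c, an NK receptor gene, adjusted p = 0.0224 in edgeR's quasi-likelihood test) and none changed at d9 (2 at unadjusted p under 0.05, 1 by DESeq2). Single markers of other cells were also called for acetate at d5 by edgeR: Cd79b of B cells rose (1.64 ± 0.35, adjusted p = 0.0499, 1 of 3 tested), Cd68 of macrophages fell (by 1.20, adjusted p = 0.0228, 1 of 2 tested) and Cd8a rose (0.75 ± 0.15, adjusted p = 0.0385, 1 of 13 CD8 markers tested). None of these 4 genes, Klrb1c included, passed with any 1 of the 4 d5 libraries left out (adjusted p = 0.0628 to 0.283, edgeR), and Cd8a and Cd79b also missed without some single d9 libraries. Without the 2 d9 libraries that stood apart, Klrb1c rose with acetate at both days and Klre1 at d5. Of the 13 CD8 markers, Cd8a and Cd3g then rose with acetate at d5, while Cd3e, Zap70 and Trac fell. Cd79b and the CD4 T cell marker Zbtb7b also rose with acetate at d5 and Cd68 fell. At d9 the dendritic cell marker Cd74 fell with acetate. Over all genes, 213 were called for acetate at d9 and 2162 at d5 in that setting. The NK-defining receptor gene Ncr1 averaged at most 0.160 CPM in any group. Foxp3, which defines regulatory T cells, averaged at most 0.109 CPM, and Lyz2 of myeloid cells had 16 reads in d5 acetate replicate 1 and 0 in the 9 other libraries, while other markers of these and further cell types were well above 0. Cd4 averaged 0.769 CPM in d9 acetate and 1.31 CPM in d9, and 0.436 CPM in d5 acetate and 0.282 CPM in d5. The summed B cell markers, nearly all Ighm, were 85.7 to 119 CPM in d9 acetate and 78.8 to 103 CPM in d9, against 200.4 to 210.0 CPM in d5 acetate and 142 to 173 CPM in d5. The 5 CD4 and regulatory T cell markers summed to 136 to 170.2 CPM in d9 acetate and 139 to 147 CPM in d9, and to 149 to 164 CPM in d5 acetate and 119 to 132 CPM in d5. The 9 dendritic cell markers summed to 109 to 140.3 CPM in d9 acetate and 114 to 133 CPM in d9, and to 83.8 to 89.0 CPM in d5 acetate and 60.2 to 80.8 CPM in d5. The 12 monocyte and macrophage markers summed to 6.14 to 6.74 CPM in d9 acetate and 8.14 to 10.4 CPM in d9, and to 4.68 to 6.84 CPM in d5 acetate and 9.43 to 12.5 CPM in d5. At d9 over d5 without acetate, edgeR called 2 of 4 NK, 2 of 5 dendritic and 6 of 13 CD8 markers higher. It called 2 CD8, 1 of 2 B cell and 1 of 2 CD4 and regulatory markers lower. With acetate it called 2 NK, 2 dendritic and 2 CD8 markers higher. Lower were 1 dendritic, 1 CD8, 2 of 2 B cell and 1 of 3 CD4 and regulatory markers. Genes whose lower group alone would not pass the filter were left out. Of all genes 37.1% and 41.6% were called. The part of other cell types in the Il10 levels was not tested beyond these values.

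Of the other 5 genes, 4 rose at d9 over d5 without acetate and 4 with acetate, Maf being the exception in both. Of all genes 37.1% were called in the comparison without acetate (15.9% higher and 21.2% lower), and 41.6% with acetate (18.5% higher and 23.1% lower). The median log2 difference of the 5 genes was 0.88 without acetate and 1.36 with it, beside -0.01 over all genes in both. For acetate it was 0.38 at d9 and 0.19 at d5, beside 0.01 over all genes at both days. For acetate at d9, 0 of the 5 were called by edgeR's quasi-likelihood test, 2 had an unadjusted p under 0.05 and 1 was called by DESeq2, where 0.0303% of all genes were called. For acetate at d5, 0 were called, 2 had an unadjusted p under 0.05 and 1 was called by DESeq2, where 1.52% of all genes were called (0.66% higher and 0.865% lower). With d9 replicate 1 and d9 acetate replicate 2 left out, the counts over the 5 were the same in every comparison. With so few genes called for acetate at d9, the count of 0 says little about these 5. At an unadjusted p under 0.05 stood 2026 of the 13182 genes for acetate at d9 and 2612 at d5. DESeq2 called 337 and 767 of them. With d9 replicate 1 and d9 acetate replicate 2 left out, edgeR called 213 genes for acetate at d9 and 2162 at d5. These counts over all genes are the background for every list here. For the difference of the acetate effects, 0 of the 5 were called by edgeR or DESeq2, 0 had an unadjusted p under 0.05, and 0% of all genes were called by edgeR (1015 at an unadjusted p under 0.05, and 102 by DESeq2).

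The receptor chains differed in how far they followed the cytokine. Il10ra and Il10rb were both higher at d9 than at d5, Il10ra by over 6-fold and Il10rb by under 2-fold. Neither passed the test for acetate, although Il10ra was 2.01-fold higher with it at d9 and 2.03-fold at d5 and its groups did not overlap at either day.

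Il10ra (ENSMUSG00000032089) lies on the minus strand at chr9:45253837-45269149 and encodes the chain that gives a cell its specificity for IL-10. Its level was 42.5, 71.8 and 84.1 CPM in the d9 acetate libraries, against 37.3, 33.5 and 27.6 CPM in the d9 libraries. It was 8.41 and 11.7 CPM in the d5 acetate libraries, against 4.52 and 5.37 CPM in the d5 libraries. The 4 groups stood in the same order as for Il10, with no overlap between neighbours, but d9 acetate replicate 1 lay close to the highest d9 library.

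For acetate at d9 the Il10ra difference was 1.01 ± 0.23 (log2, SE; 95% interval 0.50 to 1.52) with an adjusted p of 0.118 in edgeR's quasi-likelihood test. For acetate at d5 it was 1.02 ± 0.32 (0.31 to 1.73) with an adjusted p of 0.131 in the same test. Under DESeq2's Wald test it passed at both days (adjusted p = 0.00607 at d9 and 0.0343 at d5). Time gave larger differences that passed the edgeR quasi-likelihood test: Il10ra rose 6.63-fold at d9 over d5 without acetate (adjusted p = 9.21e-05) and 6.58-fold with acetate (adjusted p = 7.85e-05). The acetate effects at d9 and d5 differed by -0.01 ± 0.37 (log2, 95% interval -0.83 to 0.81), an interval that also holds sizable differences in either direction.

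Il10rb (ENSMUSG00000022969) lies on the plus strand at chr16:91406164-91425834 and encodes the chain shared with the receptors for IL-22 and the lambda interferons. Its exons overlap those of the predicted gene Gm21970 on the same strand, which had 0 counts in every library, so reads in the overlap may have been dropped or assigned to one gene by the counting. Il10rb stood at 22.3, 26.5 and 21.5 CPM in the d9 acetate libraries, against 24.6, 26.5 and 19.8 CPM in the d9 libraries. It stood at 13.5 and 15.8 CPM in the d5 acetate libraries, against 11.9 and 13.9 CPM in the d5 libraries. The groups with and without acetate overlapped at both days, while the d9 and d5 libraries did not overlap.

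The acetate difference of Il10rb was -0.01 ± 0.15 at d9 (log2, 95% interval -0.34 to 0.31; adjusted p = 0.982 in edgeR's quasi-likelihood test). At d5 it was 0.19 ± 0.19 (-0.23 to 0.60; adjusted p = 0.609 in the same test). Il10rb rose 1.84-fold at d9 over d5 without acetate (log2 0.88 ± 0.17, adjusted p = 0.00272) and 1.60-fold with acetate (log2 0.68 ± 0.17, adjusted p = 0.00921), both by edgeR's quasi-likelihood test. Without d5 acetate replicate 1 the rise with acetate no longer passed (adjusted p = 0.0858, edgeR).

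**Figure D2:**
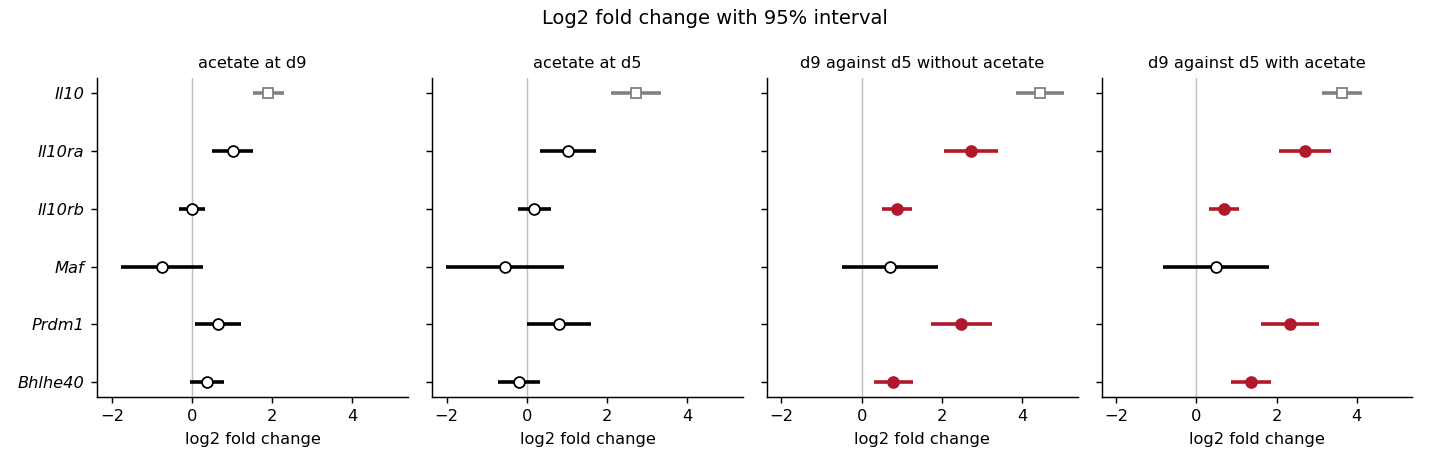
Log2 fold change and 95% interval of each gene for acetate at d9, acetate at d5, and d9 against d5 without and with acetate, from edgeR's quasi-likelihood fit. Filled red circles passed an adjusted p of 0.05, open black circles did not, and open grey squares mark Il10, which is given as a description. Il10ra, Il10rb, Prdm1 and Bhlhe40 passed in both day comparisons, and no circle passed in either acetate comparison.

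The proportion of the chains in the RNA differed between the groups. Per kilobase of exon, the Il10ra to Il10rb ratio was 2.08, 2.95 and 4.25 in the d9 acetate libraries, against 1.65, 1.38 and 1.52 in the d9 libraries. It was 0.678 and 0.806 in the d5 acetate libraries, against 0.415 and 0.421 in the d5 libraries. The ratio was above 1 in every d9 library and below 1 in every d5 library, and no 2 groups overlapped. Il10rb reads dropped at the overlap with Gm21970 would raise it in every library, so which chain is the more abundant is uncertain, most of all at the d9 values near 1.5. This ratio was chosen after its values were seen and has no test. The Il10 to Il10ra ratio per kilobase was 5.16, 4.35 and 2.73 in the d9 acetate libraries and 2.23, 1.84 and 2.13 in the d9 libraries. It was 2.26 and 1.90 in the d5 acetate libraries and 0.684 and 0.580 in the d5 libraries, the only group in which Il10 was the lower of the pair. It was highest in d9 acetate and lowest in d5, and the d9 and d5 acetate groups overlapped although both RNAs were over 3-fold higher in d9.

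**Figure D3:**
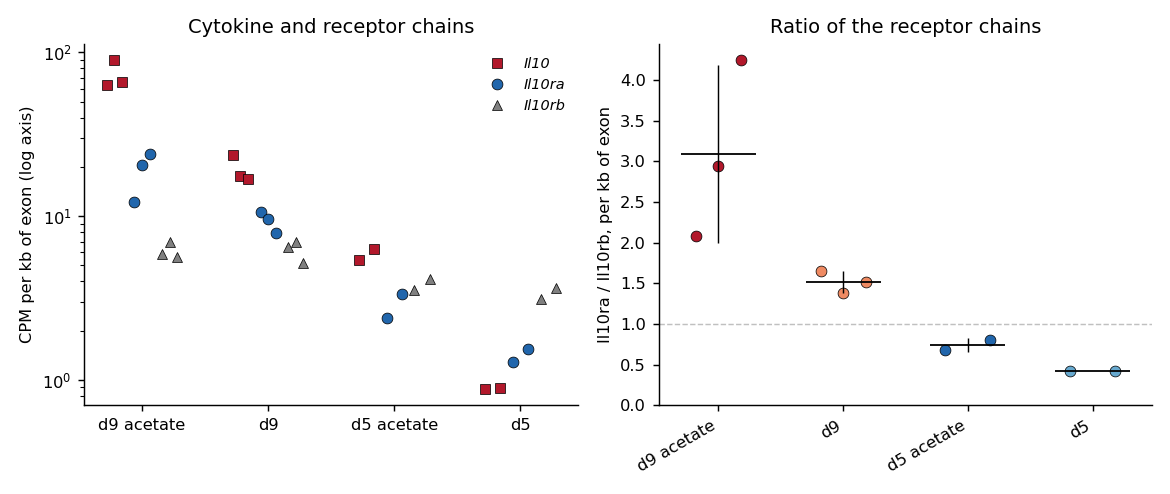
Left, CPM per kilobase of exon of Il10, Il10ra and Il10rb in each library on a log axis. Right, ratio of Il10ra to Il10rb per kilobase, with the group mean and 1 SD (n = 3 for the d9 groups and 2 for the d5 groups) and a dashed line at 1. The ratio lies above 1 in all 6 d9 libraries and below 1 in all 4 d5 libraries.

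Of the 3 regulators, Prdm1 and Bhlhe40 rose between d5 and d9, and Maf had few reads in every group. None of the 3 changed with acetate by edgeR's quasi-likelihood test. Per kilobase of exon, Bhlhe40 averaged 364 ± 110 CPM in d9 acetate and 281 ± 31.9 CPM in d9 (SD, n = 3 each), and it was the most abundant of the 6 genes in every group. Prdm1 averaged 9.31 ± 3.89 CPM per kilobase in d9 acetate and 5.97 ± 0.840 in d9, and Maf only 0.0921 ± 0.0715 in d9 acetate and 0.157 ± 0.0376 in d9.

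Maf (ENSMUSG00000055435) lies on the minus strand at chr8:115682942-115707794 and encodes c-Maf, an activator of Il10 in several T cell subsets. It had 34, 11 and 8 reads in the d9 acetate libraries, against 35, 32 and 22 reads in the d9 libraries. It had 13 and 7 reads in the d5 acetate libraries, against 15 and 13 reads in the d5 libraries. In CPM that is 1.43, 0.504 and 0.341 in d9 acetate and 1.57, 1.35 and 0.957 in d9, so the d9 groups overlapped through replicate 1 of d9 acetate. At d5 it was 0.729 and 0.368 CPM with acetate and 0.828 and 0.759 CPM without it.

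The Maf acetate difference was -0.75 ± 0.46 at d9 (log2, 95% interval -1.77 to 0.26; adjusted p = 0.478 in edgeR's quasi-likelihood test) and -0.54 ± 0.67 at d5 (-2.01 to 0.93; adjusted p = 0.690 in the same test). Its day difference was 0.70 ± 0.54 without acetate (adjusted p = 0.334, edgeR) and 0.48 ± 0.60 with it (adjusted p = 0.540, edgeR). At 7 to 35 reads a library these intervals are wide, and no Maf difference was detectable at this depth. Without d9 acetate replicate 1, the Maf acetate difference at d9 was -1.61 and its day difference with acetate was -0.37, the opposite direction, and neither passed. The antisense neighbour Gm15655 had 0 counts.

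Prdm1 (ENSMUSG00000038151) lies on the minus strand at chr10:44437177-44528501 and encodes Blimp-1, a zinc finger repressor that drives terminal differentiation and also favours Il10. Its level was 48.1, 32.4 and 75.3 CPM in the d9 acetate libraries, against 29.4, 38.5 and 32.0 CPM in the d9 libraries. It was 12.4 and 8.26 CPM in the d5 acetate libraries, against 5.79 and 6.08 CPM in the d5 libraries. The d9 groups overlapped, the d5 groups did not, and every d9 library was above every d5 library.

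Prdm1 rose 5.61-fold at d9 over d5 without acetate (log2 2.49 ± 0.34, adjusted p = 3.39e-04) and 5.04-fold with acetate (log2 2.33 ± 0.33, adjusted p = 3.64e-04), both by edgeR's quasi-likelihood test. The acetate difference was 0.64 ± 0.26 at d9 (95% interval 0.06 to 1.22; adjusted p = 0.281, edgeR) and 0.80 ± 0.36 at d5 (0.00 to 1.59; adjusted p = 0.252, edgeR). The d9 value moved in both directions with single d9 acetate libraries, to 0.28 without replicate 3 and 0.90 without replicate 2. It was 0.83 with d9 replicate 1 and d9 acetate replicate 2 left out, and it passed in none of these fits.

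Of the 6 genes, Prdm1 alone has an entry in the RefSeq promoter table used here, which spans 250 bases before to 50 after an annotated start. The entry is chr10:44458699-44458998 on the minus strand of GRCm38.p6, inside the Prdm1 gene as GENCODE M21 draws it, so it belongs to an internal start. It is shown because PMA and ionomycin activate AP-1, whose usual site is TGA(C/G)TCA. The letters searched were TGANTCA, a looser form in which any centre base counts. Its 1 match, TGAATCA, stands in capitals, beginning 48 bases before the start. The centre base of this match is A, so it is not the usual AP-1 site.
Prdm1 promoter: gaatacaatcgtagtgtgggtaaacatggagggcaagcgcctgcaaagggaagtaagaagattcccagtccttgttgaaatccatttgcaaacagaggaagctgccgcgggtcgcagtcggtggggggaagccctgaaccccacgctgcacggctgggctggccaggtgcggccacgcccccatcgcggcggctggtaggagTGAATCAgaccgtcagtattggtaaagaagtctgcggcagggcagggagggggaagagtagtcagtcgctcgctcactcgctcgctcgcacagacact
On either strand, TGANTCA occurs in 7.81% of the 32851 promoters of this length. The E-box CACGTG that Bhlhe40 binds (in 7.15% of promoters), the Maf half-site TGCTGA (in 19.5%) and the Blimp-1 core GAAAGT (in 14.3%) have no match in this window. A match is a description of the sequence and not evidence of binding.

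Bhlhe40 (ENSMUSG00000030103) lies on the plus strand at chr6:108660629-108666925 and encodes a basic helix-loop-helix repressor that holds Il10 down in T cells. Its level was 1535, 1312 and 2295 CPM in the d9 acetate libraries, against 1152, 1442 and 1365 CPM in the d9 libraries. It was 660.0 and 676 CPM in the d5 acetate libraries, against 680.5 and 845 CPM in the d5 libraries. The d9 groups overlapped, the d5 groups lay side by side, and every d9 library was above every d5 library.

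Bhlhe40 rose 1.73-fold at d9 over d5 without acetate (log2 0.79 ± 0.22, adjusted p = 0.0163) and 2.57-fold with acetate (log2 1.36 ± 0.22, adjusted p = 9.12e-04), both by edgeR's quasi-likelihood test. The first of these no longer passed without d5 replicate 1 (adjusted p = 0.146, edgeR). The acetate difference was 0.38 ± 0.19 at d9 (95% interval -0.05 to 0.80; adjusted p = 0.385, edgeR) and -0.19 ± 0.23 at d5 (-0.71 to 0.33; adjusted p = 0.688, edgeR). The acetate effect at d9 minus that at d5 was 0.57 ± 0.30 (log2, adjusted p = 0.700, edgeR). The antisense transcript 0610040F04Rik, which overlaps its exons, had 2 to 42 counts a library, against at least 11775 for Bhlhe40.

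Downstream of the receptor, several signalling genes were higher at d9. Of 8 tested genes of IL-10 receptor signalling and its feedback, 3 rose and 1 fell at d9 over d5 without acetate, and 5 rose and 0 fell with acetate. Beside them, 15.9% of all genes rose and 21.2% fell without acetate, and 18.5% rose and 23.1% fell with it. The 8 genes had median log2 differences of 0.20 for acetate at d9, -0.11 for acetate at d5, 0.46 for d9 over d5 without acetate and 0.74 with it. The kinases that sit on the chains rose in both: without acetate, Tyk2 by 0.78 ± 0.13 (adjusted p = 0.00104) and Jak1 by 0.60 ± 0.15 on the log2 scale (adjusted p = 0.0107, edgeR's quasi-likelihood test). Stat3, the main transcription factor of the pathway, rose at d9 with acetate (1.27 ± 0.26, adjusted p = 0.00301, edgeR), and its value without acetate was 0.45 ± 0.25 (adjusted p = 0.183, edgeR). With acetate, the feedback inhibitor Socs1 rose by 1.10 ± 0.24 (adjusted p = 0.00444, edgeR).

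Socs3, a feedback inhibitor induced by Stat3, fell at d9 over d5 without acetate (-0.98 ± 0.28, adjusted p = 0.0189, edgeR). It averaged 2.50 CPM in d9 acetate and 1.15 CPM in d9, and 1.50 CPM in d5 acetate and 2.27 CPM in d5. No gene of the signalling list passed for acetate by edgeR: at d9, 2 had an unadjusted p under 0.05 (Socs3 1.12 ± 0.25, adjusted p = 0.113, and Stat3 0.82 ± 0.22, adjusted p = 0.158) and 2 were called by DESeq2. At d5, 0 had an unadjusted p under 0.05 and 0 were called by DESeq2, and the smallest p values were those of Socs3 (-0.60 ± 0.31, adjusted p = 0.305, edgeR) and Socs1 (-0.36 ± 0.26, adjusted p = 0.466, edgeR).

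Genes that IL-10 is known to induce in macrophages were tested in these T cells as a readout list of 11 genes. At d9 over d5, 6 rose and 2 fell without acetate, and 6 rose and 1 fell with acetate. Leaving out Tnip3 with acetate, whose lower group alone would not pass the filter, 6 of 10 rose and 0 fell. The shares of all genes were 15.9% higher and 21.2% lower without acetate, and 18.5% higher and 23.1% lower with it. The 11 genes had median log2 differences of 0.40 for acetate at d9, -0.19 for acetate at d5, 0.52 for d9 over d5 without acetate and 0.95 with it. The nuclear NF-κB regulator Bcl3 rose by 2.25 ± 0.47 without acetate (adjusted p = 0.00409), the haem-degrading enzyme gene Hmox1 by 1.31 ± 0.10 (adjusted p = 1.01e-05) and the IL-4 receptor gene Il4ra by 1.07 ± 0.17 (adjusted p = 7.23e-04), all by edgeR's quasi-likelihood test. Tnip3 fell by 2.20 on the log2 scale without acetate (adjusted p = 0.00248, edgeR). With acetate it averaged 0.426 CPM at d9 and 4.21 CPM at d5, and it passed the filter there through its high group, so no test is given. The repressor gene Nfil3 rose by 1.34 ± 0.17 with acetate (adjusted p = 1.74e-04, edgeR). For acetate, 0 of 11 were called by edgeR at d9 (6 at an unadjusted p under 0.05, 2 by DESeq2) and 0 at d5 (1 at an unadjusted p under 0.05, 1 by DESeq2). When both deviating d9 libraries were left out, 2 fell with acetate at d5 (Sbno2 and Bcl6), where 2162 of all genes were called.

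Other transcriptional regulators of Il10 were mixed in direction. Of 31 tested, 6 rose and 8 fell at d9 over d5 without acetate, and 11 rose and 6 fell with acetate. Leaving out genes whose lower group alone would not pass the filter, 5 rose and 8 fell of 29, and 10 rose and 6 fell of 29. Of all genes 15.9% rose and 21.2% fell without acetate, so both counts without acetate lie near the share of all genes, and 18.5% rose and 23.1% fell with it. The 31 genes had median log2 differences of 0.23 for acetate at d9, -0.03 for acetate at d5, 0.25 for d9 over d5 without acetate and 0.68 with it. Eomes, a T-box factor that can drive Il10, rose the most in log2 terms of those named, by 2.37 ± 0.19 without acetate (adjusted p = 1.33e-05, edgeR) and 3.13 ± 0.20 with acetate (adjusted p = 4.00e-06, edgeR). The AP-1 family member Batf rose by 1.55 ± 0.13 without acetate and 1.01 ± 0.13 with it (adjusted p = 1.64e-05 and 1.74e-04, edgeR). Without acetate Id2 rose by 1.39 ± 0.22 (adjusted p = 7.91e-04) and Ets1 fell by 1.24 (adjusted p = 1.34e-04, both edgeR). With acetate Jun rose by 2.14 ± 0.17 (adjusted p = 1.47e-05) and Creb1 fell by 1.59 (adjusted p = 1.37e-04, both edgeR).

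For acetate, edgeR called 1 of these 31 regulators, Jun at d5, where 1.52% of all genes were called. This call depended on single d5 libraries. Jun, the AP-1 subunit, had 15.9 and 12.7 CPM in the d5 acetate libraries, against 31.9 and 40.5 CPM in the d5 libraries. It fell by 1.34 on the log2 scale (SE 0.18, adjusted p = 0.0113, edgeR's quasi-likelihood test). The call was lost without d5 replicate 2 (adjusted p = 0.106), d5 acetate replicate 1 (0.0555) or d5 acetate replicate 2 (0.130, all edgeR), with log2 values of -1.17, -1.52 and -1.19. At d9 its acetate value was 0.38 ± 0.14 (adjusted p = 0.241, edgeR). For acetate at d9, 0 of 31 passed by edgeR, 11 had an unadjusted p under 0.05 and 6 were called by DESeq2. Over all 13182 genes the last 2 counts at d9 were 2026 and 337. The smallest p values at d9 were those of the kinase gene Map3k8 (0.62 ± 0.11, adjusted p = 0.0833, edgeR) and Ets1 (0.58 ± 0.13, adjusted p = 0.121, edgeR). Without the 2 d9 libraries that stood apart, the counts for acetate were larger: 2 regulators rose at d9 (Id2 and Map3k8), and 5 rose and 8 fell at d5, among them Batf, Id2 and Map3k8 higher and Jun, Ets1 and Bach2 lower. So were the counts over all genes, with 213 at d9 and 2162 at d5, against 4 and 201 in the main fit. Replicate 3 of d9 acetate, the highest for Prdm1, Bhlhe40 and Il10ra, was also the highest for the AP-1 gene Fosl2, which had 122, 152 and 433 CPM in d9 acetate, against 90.2, 89.3 and 69.2 CPM in d9. Fosl2 was picked after its values were seen.

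**Figure D4:**
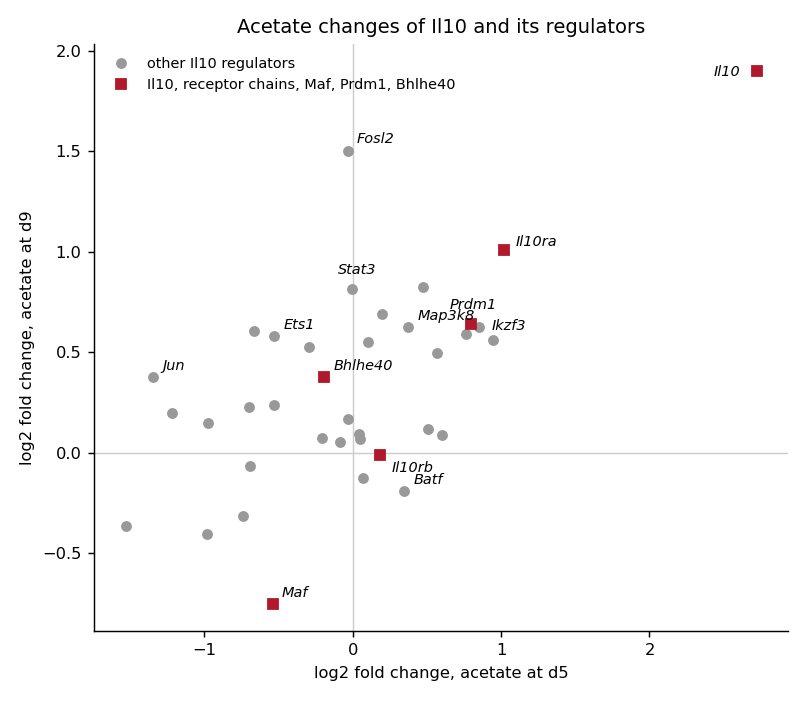
Log2 fold change for acetate at d9 against that for acetate at d5, for the 6 genes (red squares) and 31 other regulators of Il10 (grey circles). The 2 axes use different libraries. Il10 lies at 2.72 and 1.90, beyond all 31 regulators on both axes, and Maf is the lowest point on the d9 axis at -0.75. Il10 was chosen for its rise with acetate, so its place beyond the others is a description only.

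Receptors for signals that induce Il10 in T cells changed with time, and none was called for acetate. Of 15 tested, 9 rose and 4 fell without acetate and 8 rose and 4 fell with acetate at d9 over d5. Without Il6ra, whose lower group alone would not pass the filter, 9 rose and 3 fell of 14, and 8 rose and 3 fell of 14. Among all genes 15.9% rose and 21.2% fell without acetate, and 18.5% rose and 23.1% fell with it. The 15 genes had median log2 differences of 0.21 for acetate at d9, -0.02 for acetate at d5, 0.62 for d9 over d5 without acetate and 0.69 with it. Il12rb1, a chain of the IL-12 receptor, rose by 1.72 ± 0.23 (adjusted p = 3.04e-04), Tgfbr2 by 1.51 ± 0.18 (adjusted p = 1.48e-04) and Il21r by 1.17 ± 0.17 (adjusted p = 5.08e-04) without acetate, by edgeR. The costimulator gene Icos fell by 1.07 (adjusted p = 4.14e-05, edgeR). For acetate 0 of 15 were called by edgeR at either day, with 2 at d9 and 3 at d5 at an unadjusted p under 0.05, and 0 by DESeq2 at either day. With d9 replicate 1 and d9 acetate replicate 2 left out, 5 were called for acetate at d5, Il6st and Il2rb higher and Il2ra, Notch1 and Notch2 lower. In that setting 2162 of all genes were called for acetate at d5, against 201 in the main fit.

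Genes that Blimp-1 represses in lymphocytes were examined beside the rise of Prdm1. Of 9 tested, 4 fell and 1 rose at d9 over d5 without acetate, and 3 fell and 3 rose with acetate. Among all genes 21.2% fell and 15.9% rose without acetate, and 23.1% fell and 18.5% rose with it. The 9 genes had median log2 differences of 0.25 for acetate at d9, -0.31 for acetate at d5, -0.40 for d9 over d5 without acetate and 0.13 with it. Without acetate, Il2 fell by 2.57, Cd27 by 1.64 and Id3 by 1.34 on the log2 scale (adjusted p = 4.35e-05, 3.13e-05 and 1.87e-04, edgeR). Tcf7, which is also on the list, rose by 1.53 ± 0.39 (adjusted p = 0.0117, edgeR). At d9 over d5 with acetate, Id3 fell by 1.63 and Il2 by 1.62 (adjusted p = 5.93e-05 and 5.79e-04, edgeR). In the same comparison Tcf7 rose by 1.97 ± 0.40 and Myc by 1.49 ± 0.37 (adjusted p = 0.00331 and 0.00929, edgeR). For acetate 0 of 9 were called by edgeR at d9 (3 at an unadjusted p under 0.05, 3 by DESeq2) and 0 at d5 (2 at an unadjusted p under 0.05, 1 by DESeq2). When both deviating d9 libraries were left out, Cd27 rose with acetate at d9, and Bcl6 and Il2ra fell with it at d5. The acetate calls over all genes were then 213 at d9 and 2162 at d5.

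Few of the co-inhibitory receptor genes that Blimp-1 and c-Maf are known to raise alongside Il10 were called. Over all genes 15.9% rose and 21.2% fell at d9 over d5 without acetate, and 18.5% rose and 23.1% fell with it. Counts over 6 genes therefore say little about a direction of this list. Of 6 tested, 0 rose and 2 fell without acetate: Pdcd1 by 1.36 and Tigit by 1.11 on the log2 scale (adjusted p = 5.31e-04 and 0.00107, edgeR). With acetate 1 rose (Havcr2, 0.47 ± 0.17, adjusted p = 0.0478, edgeR) and 1 fell (Pdcd1, by 0.92, adjusted p = 0.00451, edgeR). The 6 genes had median log2 differences of 0.34 for acetate at d9, -0.01 for acetate at d5, -0.77 for d9 over d5 without acetate and -0.28 with it. For acetate 0 of 6 were called by edgeR at d9 (3 at an unadjusted p under 0.05, 0 by DESeq2) and 0 at d5 (0 at an unadjusted p under 0.05, 0 by DESeq2). Without the 2 d9 libraries that stood apart, 4 fell at d9 over d5 without acetate, and Tigit rose with acetate at d9 and fell with it at d5. Acetate then gave 213 calls over all genes at d9 and 2162 at d5.

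Of 12 paralogs of the 3 regulators tested, 3 were called at d9 over d5 without acetate and 5 with it, beside 37.1% and 41.6% of all genes. Of 9 other regulatory cytokines and ligands, 1 and 2 were called. The median log2 difference of the 12 paralogs was 0.12 for acetate at d9 and 0.02 at d5, and -0.10 for d9 over d5 without acetate and 0.14 with it. That of the 9 cytokines and ligands was 0.22 for acetate at d9 and -0.03 at d5, and 0.36 for d9 over d5 without acetate and 0.08 with it. Genes of the small Maf proteins rose at d9 over d5 without acetate: Mafg by 0.53 ± 0.11, Mafk by 0.31 ± 0.10 and Maff by 0.83 ± 0.28 (adjusted p = 0.00412, 0.0339 and 0.0406, edgeR). With acetate 4 paralogs rose and 1 fell, or 3 and 1 of 11 without the gene whose lower group alone would not pass the filter. Among the 4 is Bhlhe41, the closest relative of Bhlhe40, which passed the filter through its high groups and is given by its level, 0.931 CPM in d9 acetate and 0.676 CPM in d9, and 0.161 CPM in d5 acetate and 0.310 CPM in d5. Of the cytokines and ligands, Areg was the 1 that rose without acetate (1.20 ± 0.37, adjusted p = 0.0269, edgeR), and with acetate Areg (2.50 ± 0.39, adjusted p = 6.98e-04) and Tgfb1 (1.02 ± 0.37, adjusted p = 0.0466, edgeR) rose. For acetate 0 paralogs were called by edgeR at either day (2 at d9 and 0 at d5 at an unadjusted p under 0.05, 0 by DESeq2), and 0 of these cytokines (2 at each day at an unadjusted p under 0.05, 0 by DESeq2). With d9 replicate 1 and d9 acetate replicate 2 left out, Tgfb1 fell with acetate at d5, where 2162 of all genes were called.

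Among the genes beside Il10 on chromosome 1, the IL-10 family cytokine gene Il24 was detected mainly at d9. It had 65, 73 and 79 reads in the d9 acetate libraries, against 23, 32 and 26 reads in the d9 libraries. It had 0 and 3 reads in the d5 acetate libraries, against 0 and 0 in the d5 libraries. At d9 every acetate library was above every library without acetate, and at d5 the gene was at or near 0. Over the pooled group, Il24 was at least 13.8-fold higher in d9 than in d5, taking 3 counts as the floor for d5. The gene passed the filter through the d9 groups alone, so no test of d9 over d5 is given. Its acetate value at d9 was 1.42 ± 0.29 (log2, adjusted p = 0.105, edgeR).

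The nearest coding genes on either side did not share that pattern. Il19, 79.7 kb away on the low-coordinate side, had 0 to 2 reads a library, and Il20, 108.4 kb away, had 0 in every library. On the other side, Mapkapk2, a kinase gene whose nearer end lies 28.7 kb from Il10, averaged 314 CPM in d9 acetate and 309 CPM in d9, and 223 CPM in d5 acetate and 286 CPM in d5. Its acetate difference was 0.02 ± 0.14 at d9 and -0.36 ± 0.18 at d5 (adjusted p = 0.962 and 0.283, edgeR). Dyrk3, 102.5 kb away, rose at d9 over d5 with acetate (0.89 ± 0.16, adjusted p = 0.00172, edgeR), with a value of 0.35 ± 0.16 without acetate (adjusted p = 0.114, edgeR). Ikbke, also listed in this neighbourhood, rose at d9 over d5 by 1.25 ± 0.13 without acetate and 0.56 ± 0.13 with it (adjusted p = 5.61e-05 and 0.00506, edgeR). Yod1 fell by 0.86 and 0.88 (adjusted p = 0.0290 and 0.0213, edgeR). Of 10 genes tested in this neighbourhood, 2 rose and 2 fell without acetate and 5 rose and 2 fell with it. Without Il24 and the other genes whose lower group alone would not pass the filter, 1 rose and 2 fell of 8, and 4 rose and 2 fell of 9. The shares of all genes were 15.9% higher and 21.2% lower without acetate, and 18.5% higher and 23.1% lower with it. The 10 genes had median log2 differences of 0.14 for acetate at d9, 0.04 for acetate at d5, 0.11 for d9 over d5 without acetate and 0.30 with it. For acetate 0 of the 10 were called by edgeR, with 1 at an unadjusted p under 0.05 and 1 called by DESeq2 at each day. When both deviating d9 libraries were left out, Mapkapk2 fell and Ikbke rose with acetate at d5, where 2162 of all genes were called. In that setting Mapkapk2 was also called higher at d9 over d5 with acetate.

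The wider IL-10 cytokine and class II receptor family had 8 genes of 17 above the filter. In some comparisons the lower group of Il24, Il20ra or F3 would not have passed the filter alone, and the gene was left out there. At d9 over d5, 3 of the 5 others rose without acetate and 3 of 6 with acetate, and 0 fell. Beside these counts, 15.9% of all genes rose and 21.2% fell without acetate, and 18.5% rose and 23.1% fell with it. The median log2 differences of the family genes kept were 0.55 without acetate and 0.63 with it, and for acetate 0.30 at d9 (6 genes) and 0.09 at d5 (5 genes). The interferon receptor genes Ifnar1 (0.55 ± 0.11, adjusted p = 0.00319) and Ifngr1 (0.73 ± 0.17, adjusted p = 0.00715) rose without acetate, by edgeR. Il20ra averaged 0.160 CPM in d9 and 0.873 CPM in d5, with no test given. For acetate 0 of 8 were called by edgeR at either day, with 4 at an unadjusted p under 0.05 and 1 called by DESeq2 at each. Without the 2 d9 libraries that stood apart, Ifnar1 rose and Ifnar2 fell with acetate at d5, where 2162 of all genes were called.

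The genes whose profiles lay closest to Il10 were sought among 9791 protein-coding genes over the 10 libraries, by the root mean square difference in log2 CPM after centring each gene. Likeness here describes the libraries, which share days and treatments, and has no test. The 5 closest were H2-Q10 (0.763), Ppp1r3b (0.791), Abi3 (0.805), Pou6f1 (0.825) and Cdh1 (0.847). H2-Q10 is a class Ib MHC gene in a family of near-identical copies, so its counts are uncertain, Ppp1r3b encodes a glycogen-targeting subunit of protein phosphatase 1, and Cdh1 encodes E-cadherin. Ppp1r3b had 49.9, 76.9 and 117 CPM in d9 acetate and 54.4, 37.0 and 21.5 CPM in d9, and 7.29 and 11.9 CPM in d5 acetate and 4.08 and 3.97 CPM in d5. Its d9 groups overlapped, unlike those of Il10.

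When each gene was also scaled to unit SD, so that the shape counted and not the size, the 5 closest were Klrb1c (0.125 SD), Gzmb (0.132), Gramd4 (0.148), Dusp3 (0.150) and Bmf (0.177). Gzmb encodes granzyme B, a killing protease of CD8 T cells. It had 9314, 11761 and 10768 CPM in d9 acetate and 6193, 4498 and 4434 CPM in d9, and 3259 and 3842 CPM in d5 acetate and 1314 and 1115 CPM in d5. Klrb1c, one of several similar NK receptor genes, had 18.7, 25.9 and 18.2 CPM in d9 acetate and 13.6, 10.1 and 9.05 CPM in d9, and 5.16 and 5.79 CPM in d5 acetate and 1.77 and 1.23 CPM in d5. Both kept the 4 groups apart in the order of Il10. Il10ra ranked 9th without scaling and 20th with it. Prdm1 ranked 48 and 212, Bhlhe40 493 and 1053, and Il10rb 674 and 531, while Maf was below the level needed to be ranked.

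**Figure D5:**
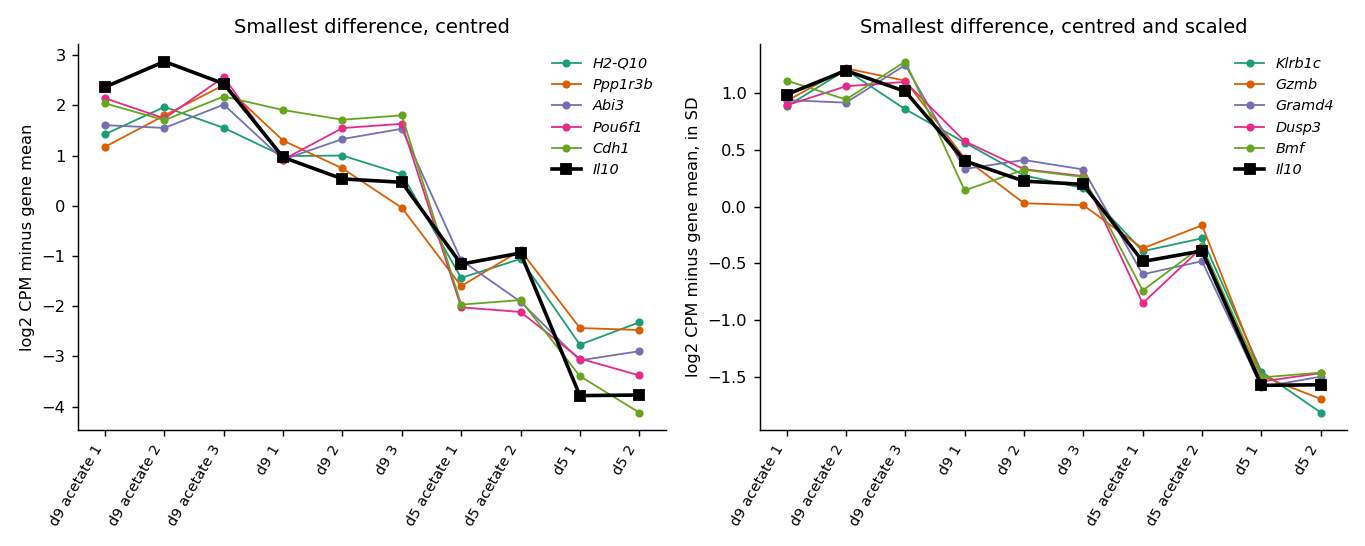
Log2 CPM of Il10 (black squares) and of the 5 closest genes by each measure in the 10 libraries, less the gene's mean (left) and also divided by its SD (right). On the right the 5 genes step down with Il10 over the 4 groups, as does Klrb1c with 25.9 CPM in d9 acetate and 1.23 CPM in d5.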

How the data were processed

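RNA of 10 samples was sequenced from stranded polyadenylated libraries, per the labels' protocols. The authors deposited raw counts per gene, 1 file a sample. deepTools, STAR, featureCounts, DESeq2 and GRCm38 are named in the submitters' processing notes, with no roles, versions or strand setting, so reads of overlapping genes may be split or dropped. Of 53465 genes, 53360 matched GENCODE M21, and the 105 others took 0.00689% of counts or less in each library.

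Library sizes were normalised by TMM, and filterByExpr by group kept 13182 genes. A mean per group was then estimated in edgeR 4.0.16 (quasi-likelihood, robust, 6 residual degrees of freedom, R 4.3.3, limma 3.58.1), with Benjamini-Hochberg adjustment over all genes and a threshold of 0.05. The SE is the absolute log2 fold change over the square root of F. The scripts were tested on simulated data. CPM per kilobase uses merged exon length. The listed genes, lists and tests were chosen with earlier results of these data known. Named genes were the 6 genes, up to 4 called members of smallest p per list and comparison (the 2 of smallest p where none passed), the 5 most like Il10 by each measure (log2 CPM with prior count 2, mean at least 1), and 2 coding genes on either side of Il10. Some further list members are named where a count of 5 or fewer, or a value, called for them, after their values were seen. Alternatives were DESeq2 1.42.0 (Wald test), its size factors, no filter, only the groups compared, a replicate block, each library left out, and both d9 libraries that stood apart left out (for the lists this was chosen after seeing the data, as were leaving out each library for list genes called for acetate, and recounting the lists without genes whose lower group alone would not pass the filter, which lowered each higher or lower count by at most 1). Replicates differed by more than sampling noise (chi-square per degree of freedom 6.00 to 76.5). Some members of these lists are counted with their list and not reported by name here.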

Additional observations from a re-analysis of the deposited data

How the results depend on the processing

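The log2 difference of Il10 ranged from 1.74 to 2.08 for acetate at d9 and 2.60 to 2.83 for acetate at d5 under the alternatives. It ranged from 4.25 to 4.54 for d9 over d5 without acetate and from 3.44 to 3.75 with acetate. Its direction was the same in every run. Il10 was chosen for these differences and its groups did not overlap, so the kept direction is no separate support. Of 395 values of the other 5 genes under alternatives, 370 kept direction and side of the threshold, 5 newly passed, 2 no longer passed and 18 changed sign.

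The count of the 5 genes called for acetate at d9 was 0, but 1 without a filter (Il10ra, adjusted p = 0.0363, edgeR) and 1 by the DESeq2 Wald test. At d5 it was 1 by DESeq2 and 2 with only the groups compared (Il10ra, adjusted p = 0.0222, and Prdm1, adjusted p = 0.0475, edgeR). Over all genes, acetate at d9 gave 4 calls, against 197 without a filter, 337 by DESeq2, 213 with both d9 libraries that stood apart left out, and 0 to 18 with 1 library left out. Acetate at d5 gave 201 calls, against 578, 767, 2162 and 1701 (no filter, DESeq2, both left out, only the groups compared), 62 with the replicate block and 0 to 498 with 1 library left out. The difference of acetate effects gave 0 calls, against 99, 102 and 255 (no filter, DESeq2, both left out) and 0 to 1 with 1 library left out. For d9 over d5 the counts were 2803 to 5425 without acetate and 3108 to 6048 with acetate when 1 library was left out. The causes of these shifts were not tested.

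Signs changed in values that never passed. With 1 library left out, Il10rb for acetate at d9 ranged from -0.13 to 0.078, and Maf at d9 over d5 with acetate from -0.37 to 1.05. For the difference of acetate effects, Il10ra ranged from -0.23 to 0.25, Maf from -1.07 to 0.34 and Prdm1 from -0.52 to 0.17 with 1 library left out, and they were 0.041, 0.18 and 0.033 with both d9 libraries left out.

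The replicate numbers were not found to pair the libraries: deviations of same-numbered libraries with and without acetate correlated by 0.029 at d5 and by -0.139, -0.392 and 0.329 at d9, and d9 replicate 1 was closest to d9 acetate replicate 2 (0.509). With 2 libraries a group, deviations at d5 mirror each other, so the d5 value is 1 number and could hardly show or exclude pairing. With the replicate block 4 of the 5 genes were called in each day comparison and 0 in each acetate comparison, as without it. Groups of 2 or 3 libraries limit the precision, and Maf, at 7 to 35 reads, is also limited by depth.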
